A study of Homo sapiens with 6 samples.

Results

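The genes described here are 10 homeobox genes of the self-renewal program of MLL-rearranged leukemia, HOXA3, HOXA5, HOXA7, HOXA9, HOXA10, HOXA11, MEIS1, PBX3, IRX3 and IRX5. They were taken by name, and all 10 were found among the 26485 genes counted. RNA was sequenced from THP1 cells, a human acute monocytic leukemia line that carries an MLL-AF9 fusion, in 6 libraries. The cells had been exposed for 6 h to withaferin A (WFA), a steroidal lactone from the plant Withania somnifera, or to its DMSO vehicle, with 3 libraries per group from 3 independent experiments. The dose of WFA was 1 μM according to the methods and 1 mM according to the labels of the samples. A single cell line was used, so the replicates measure the spread between experiments in that line. Because RNA was taken from whole cultures, fewer cells that express a gene and less RNA of that gene per cell cannot be told apart.

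HOX proteins are transcription factors that set positional identity in the embryo, and the HOXA genes lie in 1 cluster whose order along the chromosome follows their order along the body axis. In blood they are active in stem and progenitor cells and are shut off as the cells mature. MLL fusion proteins keep the posterior HOXA genes on, and HOXA9 acts with the three-amino-acid-loop-extension (TALE) homeobox proteins MEIS1 and PBX3, which bind DNA next to it. IRX3 and IRX5 are Iroquois homeobox genes, also of the TALE class, and IRX3 is normally silent in blood but is switched on in some acute leukemias.

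IRX3 fell to 0.383 of its DMSO level and was lower in all 3 experiments, IRX5 fell by less, HOXA5 rose and PBX3 rose slightly, whereas HOXA10 and HOXA11, the most counted of the 6 HOXA genes, did not pass the test. HOXA3 and MEIS1 did not pass the filter on low counts and had no edgeR test. Of the 8 genes that passed the filter on low counts, 2 were higher and 2 were lower at an adjusted p under 0.05 in edgeR's quasi-likelihood test. Among all 12854 tested genes, 25.8% were higher and 24.7% were lower, so the counts alone do not set these genes apart from the rest. The WFA libraries were all above the DMSO libraries for 3 of the 8 genes (HOXA5, HOXA7 and PBX3), against 29.6% of all tested genes, and all below for 2 (IRX3 and IRX5), against 28.5%. With 3 libraries against 3, an exact two-sided permutation test of a single gene cannot give a p below 0.1, and it gave 0.1 for each of these 5 genes, 0.2 for HOXA9 and HOXA11, 0.5 for HOXA10, 0.9 for HOXA3 and 1 for MEIS1.

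**Figure D1:**
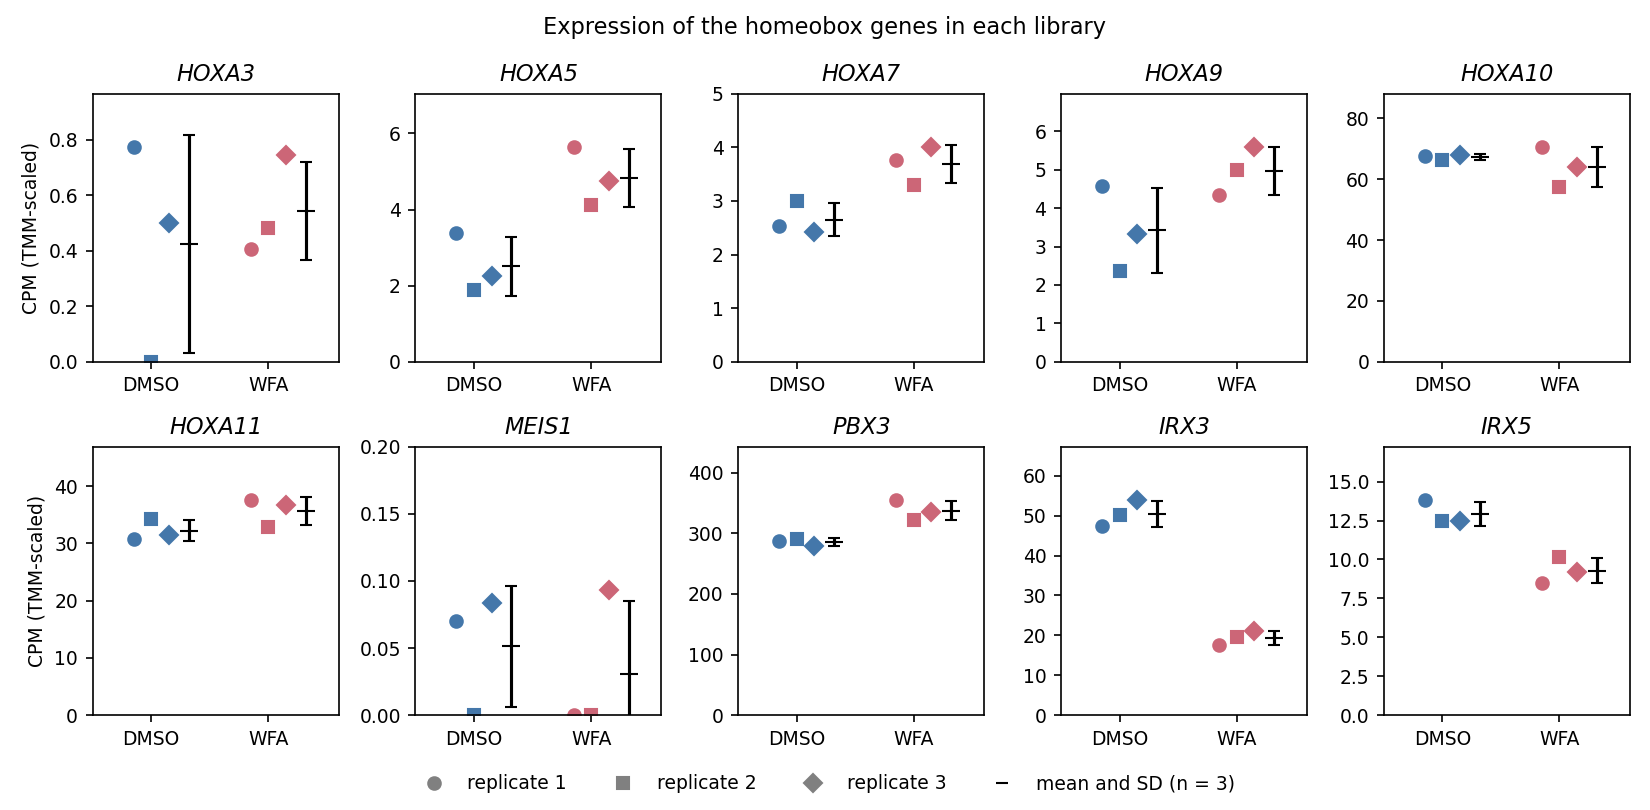
CPM of the 10 genes (linear axis from 0, scaled separately for each gene) in the 6 libraries, with a point shape for each replicate number and the mean with its SD (n = 3) in black beside each group. IRX3 and IRX5 lie lower in every WFA library, HOXA5, HOXA7 and PBX3 lie higher, and MEIS1 and HOXA3 lie below 1 CPM in all 6.

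Levels are given as CPM, the counts scaled to a common library size with edgeR's TMM factors. The libraries held between 11006035 and 13872810 counted reads, and 8157 genes had no count in any of them. The 11 monocytic markers were all tested, and their summed level was 2800 to 3390 CPM with DMSO and 2520 to 3340 CPM with WFA. Most of this sum was LYZ, named after its values were seen, with a mean of 1823 CPM with DMSO and 1764 CPM with WFA. The sum therefore says little about the other markers. Among them 5 were lower, including CD33 (log2 fold change -0.85), CD14 (-1.22) and CSF1R (-0.40), and 1 was higher, CD68 (0.37), with a list median of -0.05. Of 14 markers of other lineages, 9 had at most 3 counts in every library, 4 had none, and of the 4 tested 2 were higher and 1 was lower (median 0.36). Those without PECAM1, which monocytes carry too, and COL1A1 summed to 2.6 to 5.0 CPM with DMSO and 3.43 to 4.37 CPM with WFA. The part of these marker shifts in the results was not tested.

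The proteins encoded by these genes act at promoters and enhancers, and the regulator that the study followed, c-MYB, binds the core motif AACNG. The 250 bases before a start annotated in RefSeq are shown for the HOXA gene best known in MLL leukemia (HOXA9), for the most counted HOXA gene (HOXA10) and for both TALE partners. The windows chosen hold at most 1 base of annotated exon. Sequences are from RefSeq (GRCh38.p14), written 5′ to 3′ on the strand of the gene, and capitals mark AACNG on either strand, which reads CNGTT on the strand opposite. The windows are HOXA9 at chr7:27165538-27165787 (minus strand), HOXA10 at chr7:27174321-27174570 (minus strand, before a start inside the gene), PBX3 at chr9:125747933-125748182 (plus strand) and MEIS1 at chr2:66434875-66435124 (plus strand).
HOXA9: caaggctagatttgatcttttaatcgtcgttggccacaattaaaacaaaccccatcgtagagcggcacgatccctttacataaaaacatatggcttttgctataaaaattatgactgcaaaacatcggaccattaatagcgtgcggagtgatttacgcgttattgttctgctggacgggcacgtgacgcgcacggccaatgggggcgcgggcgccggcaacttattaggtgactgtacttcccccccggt
HOXA10: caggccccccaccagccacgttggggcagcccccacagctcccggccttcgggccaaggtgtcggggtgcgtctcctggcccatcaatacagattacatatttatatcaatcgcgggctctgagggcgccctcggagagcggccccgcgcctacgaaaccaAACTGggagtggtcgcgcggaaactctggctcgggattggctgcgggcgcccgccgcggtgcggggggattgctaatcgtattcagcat
PBX3: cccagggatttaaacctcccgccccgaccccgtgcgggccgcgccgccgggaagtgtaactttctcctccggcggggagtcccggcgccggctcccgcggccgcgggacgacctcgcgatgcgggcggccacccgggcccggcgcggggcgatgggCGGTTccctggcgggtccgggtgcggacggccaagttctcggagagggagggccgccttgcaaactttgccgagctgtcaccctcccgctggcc
MEIS1: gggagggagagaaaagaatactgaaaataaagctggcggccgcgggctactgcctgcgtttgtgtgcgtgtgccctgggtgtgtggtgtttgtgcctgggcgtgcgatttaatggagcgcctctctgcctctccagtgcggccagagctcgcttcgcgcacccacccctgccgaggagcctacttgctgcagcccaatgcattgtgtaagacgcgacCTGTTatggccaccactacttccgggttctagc
The HOXA9 window held no match, and the other 3 windows held 1 match each. A RefSeq promoter was found for 7 of the 10 genes, which had 14 windows between them, and 8 of the 14 held AACNG, against 70.6% of all 35116 windows of the same length. HOXA5, IRX3 and IRX5 had no window, so PBX3 is the only gene called by edgeR that these counts cover. HOXA3, which was not tested, had the most windows. None of the 14 held the antioxidant response element TGACNNNGC (10.9% of all windows), the heat shock element cores GAANNTTC (5.78%) and TTCNNGAA (6.62%), or the HOX-PBX motif TGATTNAT (2.48%). The MEIS motif TGACAG (13.0% of all windows) was found in 1, that of PBX3. The motifs TGATTNAT and TGACAG were chosen after the data were seen, and a match to a few letters is a description of a window and not of binding.

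Levels of different genes were compared per length, as CPM per kilobase of the union of annotated exons (GENCODE 29). PBX3 was the most abundant with 63.1 CPM per kilobase in DMSO, followed by HOXA10 (18.1), IRX3 (17.3), HOXA11 (14.0) and IRX5 (4.54). HOXA5 (1.47), HOXA9 (1.13) and HOXA7 (1.10) formed a lower tier, and HOXA3 (0.0986) and MEIS1 (0.0047) were lowest. Part of this order changes when the same counts are divided by unshared exon bases alone, where HOXA11 (20.2) came above IRX3 (17.4) and HOXA7 (2.93) above HOXA9 (1.55) and HOXA5 (1.47). In the order over all exon bases the ranges over libraries of HOXA10 and IRX3, of HOXA5 and HOXA9, of HOXA9 and HOXA7, and of HOXA3 and MEIS1 overlapped. With WFA the level of IRX3 per kilobase was 6.65, below HOXA11 at 15.5, and the ranges of HOXA10 and HOXA11, of IRX5 (3.26) and HOXA5 (2.83), and of HOXA9 and HOXA7 overlapped. PBX3, the TALE partner that was abundant in these cells, had 74.5 CPM per kilobase with WFA, against 0.0028 for MEIS1.

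The HOXA genes lie on chromosome 7 of GRCh38, all on the minus strand, HOXA3 at 27106184 to 27152581, HOXA5 at 27141052 to 27143668, HOXA7 at 27153716 to 27157936, HOXA9 at 27162435 to 27175180, HOXA10 at 27170591 to 27180261 and HOXA11 at 27181510 to 27185223. Several share exon bases with neighbours or with antisense transcripts, and the strand setting used in counting is not given. Of the exon bases, 62.5% of HOXA7 (mostly HOXA-AS3), 27.0% of HOXA9 and 26.3% of HOXA10 (both mostly HOXA10-AS), 31.1% of HOXA11 (mostly HOXA11-AS) and 17.9% of HOXA3 are shared on either strand, so reads there cannot be assigned with certainty. HOXA5 shares none. The readthrough gene HOXA10-HOXA9, which spans both genes in RefSeq (27162438 to 27180239), was listed at 0 in all 6 libraries. How reads on bases shared with this gene were counted is not given. The levels and ranks of HOXA9 and HOXA10 may therefore be too low, which was not tested. The unshared exon bases above do not take this gene into account.

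HOXA5 encodes a HOX factor known from lung development and from blood cell differentiation. It had 48, 24 and 27 counts in the DMSO libraries and 69, 51 and 51 in the WFA libraries. Each WFA library was above each DMSO library. Its level was 2.51 ± 0.774 CPM with DMSO and 4.83 ± 0.768 CPM with WFA (SD, n = 3 each), and its log2 fold change was 0.93 with a standard error of 0.25 and an edgeR adjusted p of 0.0058. The 95% interval of the fold ran from 1.32 to 2.75. The rise was seen in all 3 experiments, with differences in log2(CPM + 0.5) of 0.66, 0.94 and 0.93 between same-numbered libraries. At this low level the added 0.5 makes these differences smaller than those of log2 CPM alone, so they are not on the scale of the fitted value.

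HOXA9, the central HOX gene of MLL leukemia, had 65, 30 and 40 counts with DMSO and 53, 62 and 60 with WFA. These were 4.57, 2.37 and 3.33 CPM against 4.33, 4.99 and 5.58 CPM, and the groups overlapped because DMSO replicate 1 lay above WFA replicate 1. The log2 fold change was 0.52 with a standard error of 0.24 (adjusted p = 0.087 in edgeR). With the experiment as a block, which compares libraries within a replicate number, the estimate was 0.53 and the adjusted p from edgeR 0.0163. Adjusted p-values with and without the block are not comparable (see the section on processing), so this call is not stronger evidence than the value without it. Without DMSO replicate 1 the estimate was 0.80 and the edgeR adjusted p 0.0208. Without DMSO replicate 2 the estimate was 0.30 (adjusted p = 0.33 in edgeR), and DESeq2 did not call HOXA9 either without the block (adjusted p = 0.172) or with it (adjusted p = 0.204). With the block, edgeR called 3 of the 8 genes higher (HOXA5, HOXA9 and PBX3) and 2 lower, against 30.2% and 28.8% of all tested genes.

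HOXA7, which lies next to HOXA9 in the cluster, had 36, 38 and 29 counts with DMSO and 46, 41 and 43 with WFA. The groups did not overlap, but the log2 fold change of 0.47 (standard error 0.22) missed the threshold with an edgeR adjusted p of 0.0884. Its unadjusted p in edgeR was 0.0494, and it was past the threshold on adjusted p in 0 of the 14 alternatives in which it could be fitted, DESeq2 among them. HOXA3, the most anterior of the 6 and known from thymus development, had 11, 0 and 6 counts with DMSO and 5, 6 and 8 with WFA, which were 0.425 ± 0.392 and 0.545 ± 0.176 CPM (SD, n = 3 each), and it was left out of the edgeR comparison by the filter.

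HOXA10 and HOXA11, the most posterior HOXA genes among the 10, carried most of the HOXA reads counted for them. HOXA10, which acts in myeloid progenitors, had 959, 839 and 816 counts with DMSO and 863, 713 and 686 with WFA, that is 67.5, 66.3 and 68.0 CPM against 70.5, 57.4 and 63.8 CPM. The groups overlapped, and the log2 fold change was -0.07 with a 95% interval from -0.27 to 0.13 (adjusted p = 0.54 in edgeR). HOXA11, best known from limb and uterine development, had 438, 434 and 378 counts with DMSO and 459, 408 and 394 with WFA, and its log2 fold change was 0.15 with an interval from -0.07 to 0.37 (adjusted p = 0.251 in edgeR). A change of the size seen for HOXA5 lies outside both intervals.

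The summed level of the 11 HOXA protein-coding genes was 146 ± 3.98 CPM with DMSO and 161 ± 13.6 CPM with WFA (SD, n = 3 each). HOXA10, HOXA11 and HOXA13, the last genes at the posterior end, made up 87.7%, 89.7% and 89.7% of this sum in the DMSO libraries. In the WFA libraries they made up 85.0%, 82.5% and 82.6%. HOXA9 is not part of this share, and reads on bases shared with the readthrough gene HOXA10-HOXA9 may be missing from the sum. HOXA4 had a log2 fold change of -0.46 and HOXA13 of 0.18, both named after their values were seen and neither past the threshold.

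**Figure D2:**
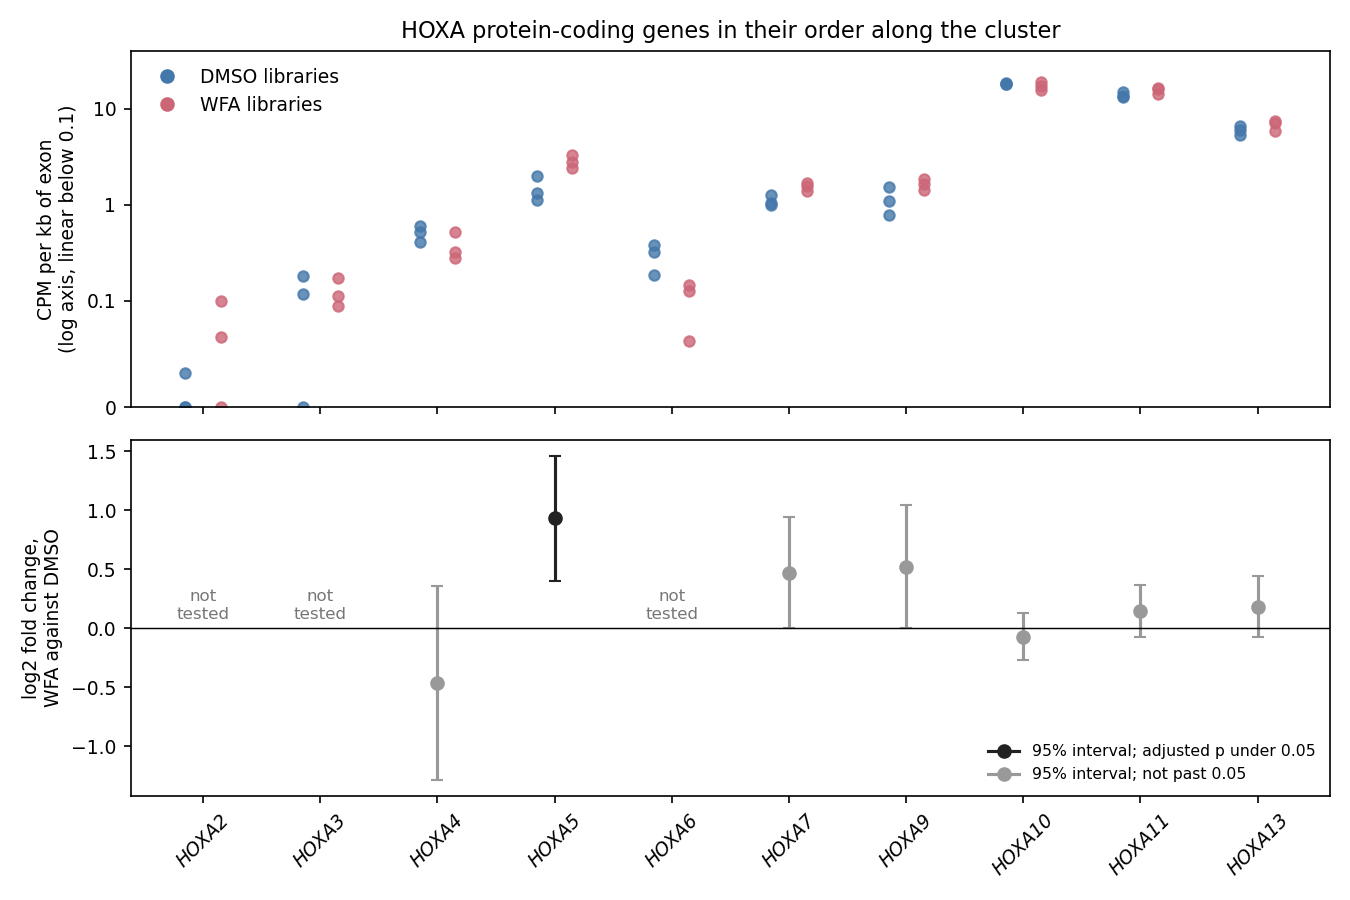
10 HOXA protein-coding genes in their order along the cluster, with CPM per kilobase of exon in each library above (log axis, linear below 0.1) and the log2 fold change with its 95% interval below (black past the threshold, grey not). HOXA5 (0.93) stands above 0, and HOXA10 (-0.07), HOXA11 (0.15) and HOXA13 (0.18), the most abundant, lie near it.

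PBX3 encodes a TALE cofactor that partners HOXA9 and was the most abundant of the 10 genes. It lies at 125747345 to 125967377 on chromosome 9, plus strand, and none of its exon bases is shared with another gene. It had 4086, 3685 and 3342 counts with DMSO and 4334, 4002 and 3604 with WFA, which were 287, 291 and 279 CPM against 354, 322 and 335 CPM. The WFA libraries all lay above the DMSO libraries, and the log2 fold change was 0.24 with a standard error of 0.08 and a 95% interval of 0.06 to 0.42 (adjusted p = 0.0255 in edgeR). This call was lost in 6 of 15 alternatives. The adjusted p from edgeR was 0.127 with total counts in place of TMM scaling, 0.054 with no filter, 0.0741, 0.0645 and 0.0625 without DMSO replicate 1, 2 and 3, and 0.0786 without WFA replicate 1, with log2 fold changes from 0.15 to 0.24.

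MEIS1, the other TALE partner and a gene that MLL fusions raise together with HOXA9, had 1, 0 and 1 counts with DMSO and 0, 0 and 1 with WFA. Both groups were at the floor of 3 counts per library, so no fold is given, and this floor covers counting error only. MEIS1 lies at 66433452 to 66573869 on chromosome 2, plus strand. Its relative MEIS2 was tested and had a log2 fold change of -0.35 (adjusted p = 0.0634 in edgeR), a value named after it was seen.

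IRX3 lies on chromosome 16 at 54283304 to 54286763, minus strand, and IRX5 at 54930862 to 54934485, plus strand, and hardly any of their exon bases is shared. IRX3 had 674, 636 and 646 counts in the DMSO libraries and 214, 243 and 226 in the WFA libraries, and no libraries overlapped. Its log2 fold change was -1.38 with a standard error of 0.11 (adjusted p = 1.01e-07 in edgeR), which is a fold of 0.383 with a 95% interval of 0.326 to 0.450. Between same-numbered libraries the differences in log2(CPM + 0.5) were -1.41, -1.34 and -1.34.

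IRX5 had 196, 158 and 150 counts with DMSO and 104, 126 and 99 with WFA, that is 13.8, 12.5 and 12.5 CPM against 8.50, 10.2 and 9.21 CPM. Each WFA library was below each DMSO library. The log2 fold change was -0.48 with a standard error of 0.14 (adjusted p = 0.0111 in edgeR), a fold of 0.718 with an interval of 0.583 to 0.886, and the call held in 15 of 15 alternatives. The level of IRX3 relative to IRX5 per kilobase was 3.36, 3.93 and 4.21 in the DMSO libraries and 2.01, 1.88 and 2.23 in the WFA libraries. The WFA libraries all had a lower ratio than the DMSO libraries (3.83 ± 0.433 against 2.04 ± 0.177, SD, n = 3 each), so IRX3 fell by more than IRX5 in these libraries.

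**Figure D3:**
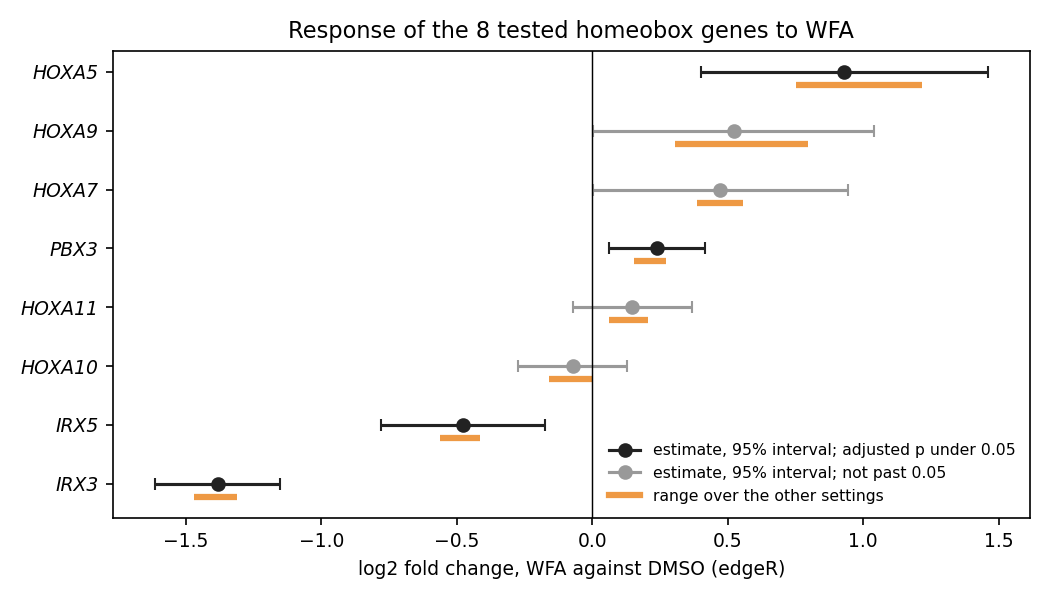
Log2 fold change of the 8 tested genes (WFA minus DMSO) with 95% intervals from edgeR (black past the threshold, grey not), and orange bars for the range of the estimate over the alternatives. IRX3 and IRX5 lie below 0, HOXA5 and PBX3 above it, and the intervals of HOXA10 and HOXA11 cross it. The intervals of HOXA7 (0.001 to 0.94) and HOXA9 (0.004 to 1.04) lie just above 0, but neither gene is past the threshold on adjusted p.

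Genes near the 10 genes were also read. Within 500 kb of the HOXA genes, 9 other genes were tested, HOXA11-AS among them, and the median log2 fold change was 0.18. Near PBX3, 3 genes were tested and 2 were lower, MVB12B, a subunit of the ESCRT sorting complex, whose log2 fold change was -0.91 (adjusted p = 1.21e-05 in edgeR) and GAPVD1, an endocytic regulator, with -0.23 (adjusted p = 0.0256 in edgeR). GAPVD1 lost its call when DMSO replicate 1, 2 or 3 or WFA replicate 2 or 3 was left out, with adjusted p-values of 0.0507 to 0.0767 in edgeR. Near IRX3 and IRX5, the 3 tested genes did not pass the threshold, with log2 fold changes of -0.05 for FTO (adjusted p = 0.746 in edgeR), -0.16 for CRNDE (adjusted p = 0.202 in edgeR) and -0.04 for MMP2, all named after their values were seen. Over all 12854 tested genes the median log2 fold change was 0.02.

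The other genes of the pathway came from lists. Beside the counts called on each list stand the shares over all tested genes in edgeR, 25.8% higher and 24.7% lower. The 28 HOXB, HOXC and HOXD genes were mostly at or near 0, since 16 had no count in any library, 21 had at most 3 in every library, and of the 4 tested none was called by edgeR or DESeq2 and none had an unadjusted p under 0.05 in edgeR, with a median of -0.02. Of 7 HOXA non-coding transcripts counted, 4 were tested, with 1 higher by edgeR and by DESeq2 and a median of 0.36. The one that rose was HOXA11-AS (log2 fold change 0.59, adjusted p = 0.00533 in edgeR), which shares exon bases with HOXA11. With the block the edgeR fit gave 2 higher, since HOTTIP, which lies beyond HOXA13, had a log2 fold change of 0.46 and an adjusted p of 0.00822 there, against 0.45 and 0.0758 without it (HOTTIP was named after its values were seen).

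Among 18 TALE homeobox genes, which include 4 of the 10 genes, 10 were tested, 2 were higher (PBX3 and PKNOX1) and 3 lower (IRX3, IRX5 and TGIF2), with a median of -0.11. PKNOX1, another HOX-PBX cofactor, rose by 0.70 on the log2 scale (adjusted p = 2.33e-05 in edgeR), and TGIF2, a repressor in TGF-beta signalling, fell by 1.05 (adjusted p = 5.36e-06 in edgeR). Of 27 genes of the MLL complex and its elongation cofactors, 26 were tested, 3 were higher and 9 lower, with a median of -0.16. LEO1 (-0.91) of the PAF complex and WDR5 (-0.80) and ASH2L (-0.56) of the MLL core fell, and AFF1 (0.47) and AFF4 (0.57) of the elongation complexes rose. KMT2A, the MLL gene itself, had a log2 fold change of 0.08 (adjusted p = 0.545 in edgeR), and MLLT3, which supplies AF9, had 0.19 (adjusted p = 0.26 in edgeR), both named after their values were seen. Reads from the fusion can fall on either gene and were not told apart.

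Of 21 Polycomb, KDM6 and CDX genes, which set or remove the repressive mark on HOX clusters or act on them, 16 were tested, 6 were higher and 3 lower in edgeR, with a median of 0.19, and DESeq2 called 3 higher. KDM6B, a demethylase of the repressive mark, had a log2 fold change of 1.02 and RNF2, a Polycomb ubiquitin ligase, of 0.74, whereas CBX2 (-1.13) and JARID2 (-0.70) fell. All 11 partners of HOXA9, transcription factors and the coactivators CREBBP and EP300, were tested, with 5 higher and 5 lower and a median of -0.21. Both coactivators are among the 5 higher (CREBBP was named after its values were seen). MYB (-2.30), RUNX1 (-1.15), CREB1 (-0.65) and CEBPA (-0.58) fell, and STAT5B (0.40) and EP300 (0.45) rose. Of 32 known targets of HOXA9, MEIS1 or MLL fusions, 30 were tested, 8 were higher and 16 lower, with a median of -0.35 against 0.02 over all tested genes. MYB is on this list as well as on that of the partners. Over all tested genes, 25.8% were higher and 24.7% lower in edgeR. KIT (-3.11), MYC (-2.21) and BCL2 (-1.21) fell and SIX4 (2.34) and PIM1 (1.30) rose.

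**Figure D4:**
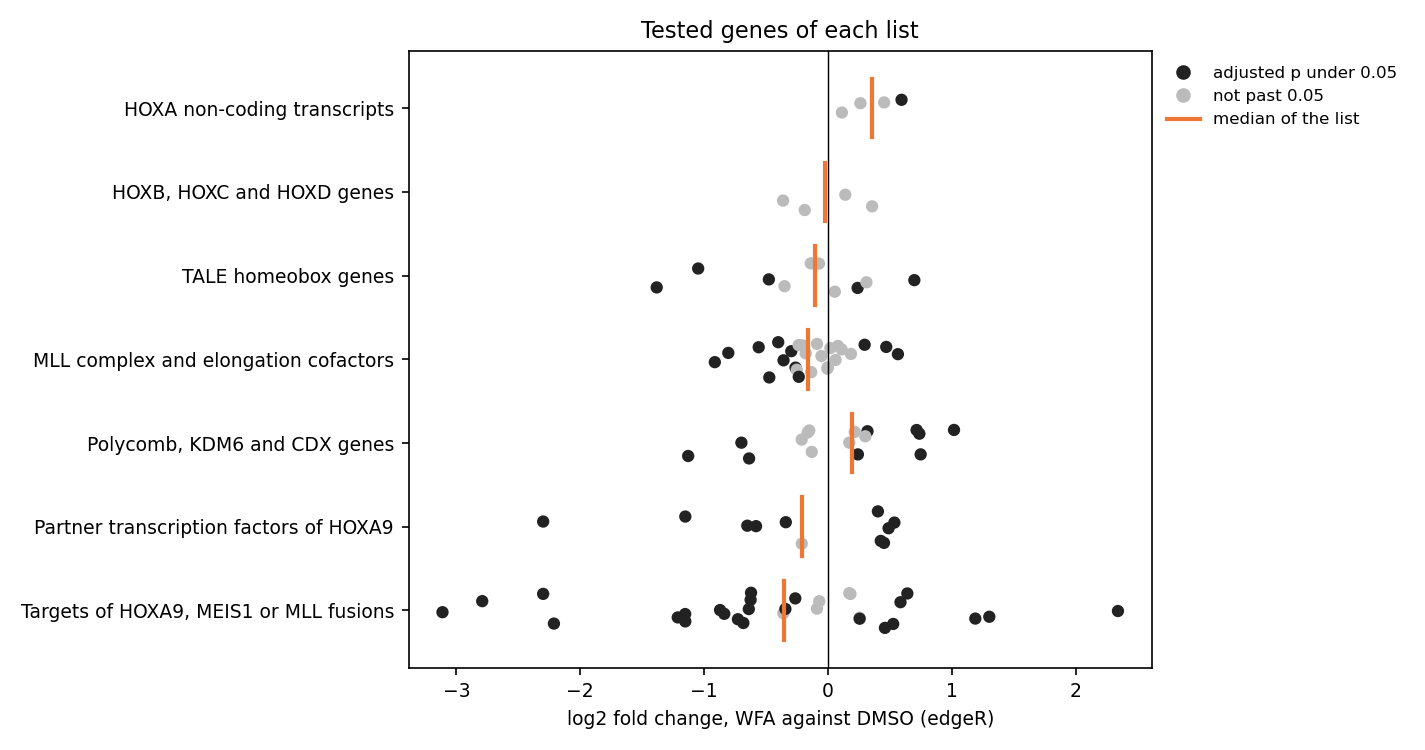
Log2 fold change (WFA minus DMSO) of each tested gene in the gene lists other than the HOXA protein-coding genes, 1 point per gene and an orange line for each list's median. Black points are past the threshold. The medians lie between -0.35 for the targets of HOXA9, MEIS1 or MLL fusions and 0.36 for the HOXA non-coding transcripts.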

How the data were processed

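The authors deposited whole-number read counts per gene, not normalized, and these were used. The submitters' notes name bcl2fastq 2.19, Trimmomatic, Bowtie2, Picard, featureCounts, DESeq2 and hg38. The strand setting is not given in the sources used here. The 6 columns of scaled values and the authors' own comparison (fold changes and p-values) were not used.

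Counts were compared in R 4.3.3 with edgeR 4.0.16 (TMM, filterByExpr with a minimum count of 10, quasi-likelihood test, Benjamini-Hochberg over 12854 genes, threshold 0.05). The fit was tested on simulated data. Standard errors are the log2 fold change over the root of the quasi-likelihood F. CPM used TMM-scaled library sizes. Libraries of a group differed beyond sampling noise (chi-square per gene 5.67 to 10.4). Same-numbered libraries come from 1 experiment, and their deviations correlated (0.217, 0.333 and 0.245), so a replicate block was an alternative, beside DESeq2 1.42.0, other scalings and filters, a robust fit and leaving out each library.

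The 10 genes and the lists were chosen with earlier results of these data known. Other genes were named by a rule: up to 4 called genes per list with the smallest p, up to 2 against its direction, called neighbours within 500 kb, the 3 genes nearest to IRX3 and to HOXA10 across libraries, and genes marked by the study, of which only MYC and IRX3 are given. A result that this rule selects is not reported here. Exons are from GENCODE 29 and promoters from RefSeq.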

Additional observations from a re-analysis of the deposited data

How the results depend on the processing

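The log2 fold changes of HOXA5, PBX3, IRX3 and IRX5 kept their sign under every alternative run, whereas the median over all tested genes went from 0.02 to -0.06 with total counts. Over the alternatives, 111 log2 fold changes of the 10 genes stayed on the same side of the threshold, 6 (all PBX3) were lost and 2 (both HOXA9) were gained, and 283 counts stayed within 1.5 times while 17 did not. The number of the 10 genes called higher was 1 instead of 2 with total counts and with no filter, and 1 to 2 when single libraries were left out (1 without DMSO replicate 2 or 3 or WFA replicate 1). TALE genes called higher were 1 with total counts and with no filter, and 1 to 2 without single libraries (1 without DMSO replicate 1 or 2 or WFA replicate 1). HOXA non-coding transcripts called higher were 2 with the replicate block and with no filter, and 1 to 2 without single libraries (2 without DMSO replicate 2). Polycomb, KDM6 and CDX genes called higher were 3 with DESeq2, with or without the block (with 3 lower without it and 4 with it, against 6 higher and 3 lower in edgeR), and 3 to 6 without single libraries (3 without DMSO replicate 2 or WFA replicate 2). The replicate block lost no call among the 10 genes and gained HOXA9, lowered the residual degrees of freedom from 4 to 2, and called 3877 genes higher and 3708 lower against 3311 and 3178, while total counts gave 2763 and 3875. With the block, the edgeR adjusted p of IRX3 went from 1.01e-07 to 6.43e-38, although its standard error was 0.105 against 0.109. The edgeR adjusted p of IRX3 with no filter was 7.88e-24, with a standard error of 0.12. Adjusted p-values with the block or with no filter are therefore not comparable with those of the main fit. The cause of these shifts was not tested. HOXA7 could not be fitted at a minimum count of 50. HOXA3 and MEIS1 fell below the filter on low counts, so neither was tested, and at this depth a fall or a modest rise in either could have been missed.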

Other observations

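The genes whose levels over the 6 libraries were most like those of IRX3, by the root mean square difference of centred log2(CPM + 0.5), were NOP56, a core protein of the small nucleolar particles that modify ribosomal RNA (0.0516), GEMIN4, a part of the complex that assembles spliceosomal particles (0.063), and the small nucleolar RNA SNORD44 (0.064). NOP56 and GEMIN4 had fitted log2 fold changes of -1.34 and -1.37, close to that of IRX3, and SNORD44 of -2.29, which the added 0.5 draws in. For HOXA10 the nearest were PSMA3, a proteasome subunit (0.0193), TBC1D15 (0.0262) and the splicing factor ZRSR2 (0.0296), each with a log2 fold change between -0.08 and -0.05 and none called by edgeR.

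COL1A1, a collagen gene on the list of markers of other lineages, had 3, 4 and 10 counts with DMSO and 107, 106 and 135 with WFA, and its log2 fold change was 4.47 (adjusted p = 7.18e-08 in edgeR).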
